A study of Homo sapiens with 94 samples.

Results

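Doxycycline induction of a TET construct was followed in the total RNA of 1 HEK293 line, titled HEK293_MeBP_TET_WT. It was read from the authors' deposited table of sense-strand fold changes for 3 treated against 3 untreated RNA-seq libraries, with every row taken. These are 6 of the 94 samples of the series, of its 63 total RNA samples, and of the 27 in the experiment on lines whose titles carry MeBP. The table holds 18850 genes, of which 18609 had a mean level above 0 and 241 were listed at 0. An adjusted p was given for 15364 genes, the lowest of which had a mean level of 4.54, and these are the genes tested here.

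HEK293 is a human embryonic kidney cell line, and T-Rex Flp-in cells carry a doxycycline-inducible construct at an integrated site. The untreated group had no treatment, and the other group received doxycycline at 1 µg/mL for 48 h. The titles of all 6 libraries say TET_WT, while the genotype field of all 6 says TETMut-CD-GFP, the mutant catalytic domain fused to GFP. For 1 of the 3 doxycycline libraries, replicate 3, the genotype field also says MeBP_TKO. The 18 libraries of the companion lines MeBP_TKO G16 and MeBP_TKO G37 have TET-CD-GFP as genotype, and 1 of the 3 G37 doxycycline libraries lacks the MeBP_TKO entry. The labels do not say whether a line is 1 clone, and nothing says that replicates came from separate cultures. The p-values therefore measure only the spread between these libraries. No value per library was among the tables used, so levels in each library, depth per library and within-group spread are not analysed here. The precision is that of the deposited standard errors (SE).

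TET enzymes oxidise 5-methylcytosine in DNA to 5-hydroxymethylcytosine and further products, which can end in loss of the mark. Methylated CpG-rich promoters are commonly silent, and methyl-binding proteins such as the MBD family read the mark. HEK293 cells carry many methylated promoters, so expressing a TET catalytic domain is a way to ask which transcripts respond to oxidation.

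TET1, the gene whose catalytic domain such constructs carry, had a mean level of 11917 normalized counts over the experiment. Its log2 fold change was 2.52 ± 0.07 (SE) in the authors' deposited table, with an adjusted p of 5.3e-291. Reads of a construct and of the cell's own TET1 transcript cannot be told apart in this table. The fold change was 2.34 ± 0.03 in the HEK293 TET-CD line of another experiment and 1.98 ± 0.03 in its TETmut-CD counterpart. It was 2.46 ± 0.07 in G37 and 1.97 ± 0.07 in G16, and 3.52 ± 0.03 in U2OS, an osteosarcoma line, all in the authors' deposited tables. The construct gene was therefore higher with doxycycline in all 6 lines, and its rise does not distinguish the active from the mutant form.

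Doxycycline changed few genes, and most of those rose. At an adjusted p below 0.05 in the authors' deposited table, 199 of 15364 genes were called, or 1.3%, with 159 higher (1.03%) and 40 lower (0.26%). The share of higher calls was 79.9%. When fold changes were centred on the median of genes at a mean level of 100 or more, a shift of -0.01 on log2, the split was 216 higher and 24 lower, or 90% higher. The rises were larger than the falls. The median deposited log2 fold change was 0.33 among the 159 genes called higher and -0.13 among the 40 called lower in the authors' deposited table. A deposited log2 of at least 0.5 was reached by 47 of the higher genes and of at least 1 by 11, and only 1 of the lower genes, VPS9D1, reached -0.5. The other falls were slight, with 35 of 40 above -0.2.

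**Figure D1:**
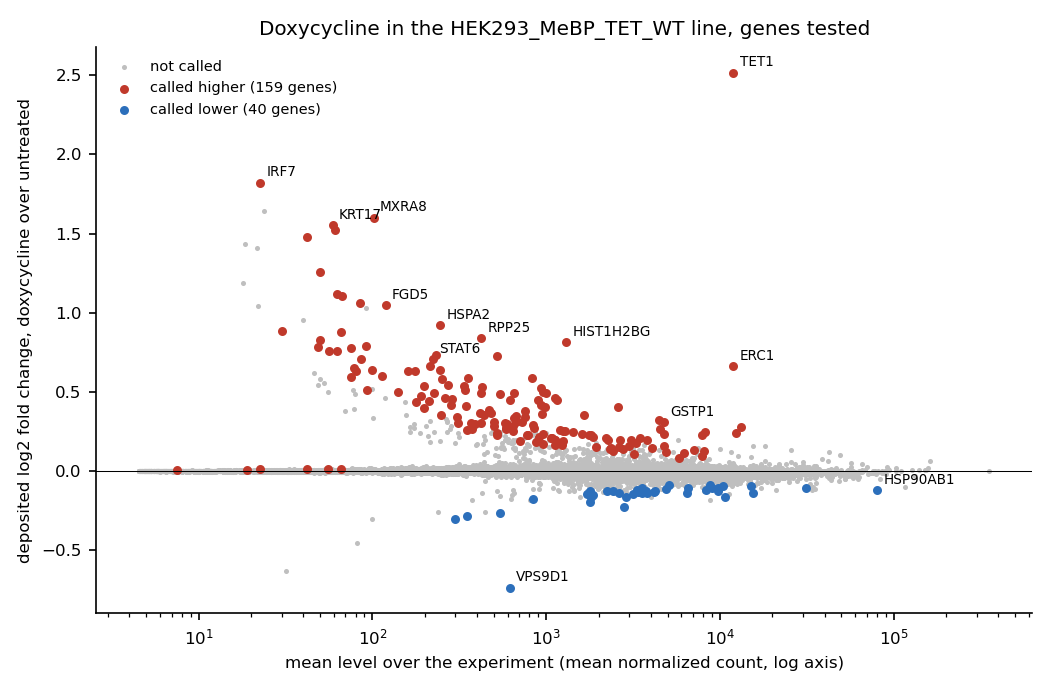
Deposited log2 fold change with doxycycline (vertical axis) against mean level over the experiment in normalized counts (log axis) for the genes tested, 1 point per gene. Red points are the 159 genes called higher and blue points the 40 called lower, and the grey points are not called. Rises spread over low and middle levels, while 35 of the 40 falls lie between -0.2 and 0, and 35 of them at levels above 1000.

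The direction of the calls varied with the expression level. Below a mean level of 100, 28 of 2716 genes tested were called higher and 0 lower. Between 100 and 1000 the counts were 77 higher and 5 lower of 3569, and between 1000 and 10000 they were 50 and 29 of 7980. Above 10000, 4 genes were called higher and 6 lower of 1099. The median mean level was 617 for genes called higher, 3554 for genes called lower and 1538 for all genes tested. Falls were thus called mostly in abundant transcripts and rises mostly in weaker ones. The deposited SE was 0.04 for HSP90AB1 at a mean level of 80356 and 0.20 for APOBEC3B at 85. Changes as small as most of the falls can pass only where the SE is small. Precision and a dependence of direction on level therefore cannot be told apart in these counts.

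Among genes at a mean level of 100 or more, MXRA8, a matrix remodelling protein and alphavirus receptor, had the largest deposited rise after TET1. Its log2 fold change was 1.60 ± 0.26, with an adjusted p of 9.68e-08 in the authors' deposited table. FGD5, an activator of the GTPase CDC42, rose by 1.05 ± 0.18. HSPA2, a testis-enriched HSP70 chaperone, rose by 0.92 ± 0.15, and RPP25, a subunit of RNase P, by 0.84 ± 0.12 in the authors' deposited table. These genes had mean levels of 102, 119, 246 and 423 normalized counts in that order, so the largest rises were of genes with low expression.

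Enzymes, signalling proteins and transcription factors were also among the largest rises. ALDH1A3, which makes retinoic acid, rose by 0.73 ± 0.14, and STAT6, the transcription factor of interleukin-4 signalling, by 0.71 ± 0.18 in the authors' deposited table. MAFA, a regulator of insulin transcription, rose by 0.64 ± 0.15, and DMC1, a recombinase of meiosis, by 0.60 ± 0.16 in the authors' deposited table. C1QL4, a secreted C1q-like protein, rose by 0.74 ± 0.18, SEMA4G, a semaphorin, by 0.66 ± 0.14, and GPR146, an orphan receptor, by 0.63 ± 0.20 in the authors' deposited table. LAMC3, a laminin chain of basement membranes, rose by 0.59 ± 0.09 and IL17RB, the receptor of interleukin-25, by 0.49 ± 0.07 in the authors' deposited table. All of these passed the adjusted threshold, with values between 3.6e-10 for IL17RB and 0.0112 for GPR146.

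The rise with the smallest adjusted p after TET1 was of an abundant transcript. ERC1, a scaffold protein of the ELKS family, had a mean level of 11919, and its log2 fold change was 0.67 ± 0.06 with an adjusted p of 2.01e-26 in the authors' deposited table. ATL3, an atlastin GTPase of the endoplasmic reticulum, rose by 0.41 ± 0.07 and NSMF by 0.32 ± 0.06 in the authors' deposited table. FTL, the ferritin light chain, rose by 0.28 ± 0.05 at a mean level of 13206 in the authors' deposited table. CBS, which makes cystathionine from homocysteine, rose by 0.24 ± 0.05 at a mean level of 12380 in the authors' deposited table.

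Some of the largest rises came from genes close to silent. IRF7, a transcription factor of the interferon response, had a mean level of 22.5 and a log2 fold change of 1.82 ± 0.57 in the authors' deposited table. KRT17, a keratin of stressed epithelium, stood at 1.55 ± 0.32 and ALPPL2, a placental-type alkaline phosphatase, at 1.52 ± 0.45 in the authors' deposited table. SLC16A3, a lactate exporter, stood at 1.48 ± 0.33, and APOBEC3B, a cytidine deaminase, at 1.06 ± 0.20 in the authors' deposited table. KRT17, ALPPL2 and APOBEC3B have near-identical relatives whose reads can be shared, so their values are uncertain. For 6 genes called higher, TMEM119, PGAM2, RAB25, PARP10, S100A16 and ANGPTL2, the deposited log2 is below 0.02 because it is shrunken toward 0. With the shrinkage undone they lay between 0.93 ± 0.26 for PARP10 and 3.22 ± 0.86 for TMEM119, so a deposited value near 0 at a low level did not mean a small change.

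Falls were led by VPS9D1, a protein with a VPS9 domain, a domain known from activators of RAB5. Its mean level was 617, and its log2 fold change was -0.74 ± 0.08 with an adjusted p of 1.77e-16 in the authors' deposited table. C17orf59, a subunit of the lysosome-positioning complex BORC, stood at -0.30 ± 0.13, and TRPC4, a cation channel, at -0.28 ± 0.10 in the authors' deposited table. LHFPL4, a partner of GABA-A receptors, stood at -0.26 ± 0.08, and MANEAL, an endomannosidase-like protein, at -0.23 ± 0.06 in the authors' deposited table. OAZ2, an antizyme of polyamine control, stood at -0.20 ± 0.06, SARM1, an NAD hydrolase of axon degeneration, at -0.16 ± 0.04, and UQCRFS1, the Rieske protein of respiratory complex III, at -0.16 ± 0.04 in the authors' deposited table.

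Abundant transcripts among the falls moved by little. HSP90AB1, a cytosolic chaperone with a mean level of 80356, stood at -0.12 ± 0.04, and its co-chaperone PTGES3 at -0.11 ± 0.03 in the authors' deposited table. MORF4L1, a chromodomain protein of histone acetylation complexes, stood at -0.13 ± 0.03, and MED4, a Mediator subunit, at -0.14 ± 0.04 in the authors' deposited table. HPRT1, an enzyme of purine salvage often used as a reference gene, stood at -0.14 ± 0.05 in the authors' deposited table. After centring, SAP30 (0.072), BAG1 (0.0615), ORC2 (0.0565) and TBC1D15 (0.0686) no longer passed, with those adjusted p-values.

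The sequences before the start of 5 genes show what a CpG mark could lie on. VPS9D1, MANEAL and SARM1 are shown because they fell in this line and in 3 other lines with TET-CD, as given below. GSTP1 is shown because its promoter is a textbook case of methylation in cancer, and WNT3A because its nascent RNA changed too. Each is the run of 250 bases before the start on the gene's strand, 5′ to 3′, from RefSeq on GRCh38.p14, with every CG in capitals. The windows are chr16:89720899-89721148 on the minus strand for VPS9D1, and, on the plus strand, chr1:37795238-37795487 for MANEAL and chr17:28371444-28371693 for SARM1. They are chr11:67583562-67583811 for GSTP1 and chr1:228006748-228006997 for WNT3A, both on the plus strand.
VPS9D1: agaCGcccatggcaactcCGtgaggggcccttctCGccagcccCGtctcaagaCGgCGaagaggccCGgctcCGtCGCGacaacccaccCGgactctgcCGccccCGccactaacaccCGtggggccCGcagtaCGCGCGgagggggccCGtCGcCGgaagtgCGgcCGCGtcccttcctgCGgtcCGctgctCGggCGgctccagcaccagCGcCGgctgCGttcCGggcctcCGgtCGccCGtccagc
MANEAL: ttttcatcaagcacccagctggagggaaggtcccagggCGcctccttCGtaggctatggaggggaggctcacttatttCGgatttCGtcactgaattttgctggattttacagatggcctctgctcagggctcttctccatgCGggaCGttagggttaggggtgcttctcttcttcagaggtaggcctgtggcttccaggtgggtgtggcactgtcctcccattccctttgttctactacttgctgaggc
SARM1: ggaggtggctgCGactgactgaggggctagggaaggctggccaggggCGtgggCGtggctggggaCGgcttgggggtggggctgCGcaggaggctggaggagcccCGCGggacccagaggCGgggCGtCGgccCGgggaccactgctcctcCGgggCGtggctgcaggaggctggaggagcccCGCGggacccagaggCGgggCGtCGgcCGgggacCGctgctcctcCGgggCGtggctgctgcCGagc
GSTP1: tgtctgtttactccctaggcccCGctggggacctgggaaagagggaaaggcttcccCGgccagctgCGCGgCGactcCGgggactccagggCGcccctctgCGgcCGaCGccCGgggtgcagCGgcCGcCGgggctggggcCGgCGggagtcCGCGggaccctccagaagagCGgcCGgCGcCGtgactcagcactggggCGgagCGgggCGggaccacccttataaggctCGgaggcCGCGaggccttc
WNT3A: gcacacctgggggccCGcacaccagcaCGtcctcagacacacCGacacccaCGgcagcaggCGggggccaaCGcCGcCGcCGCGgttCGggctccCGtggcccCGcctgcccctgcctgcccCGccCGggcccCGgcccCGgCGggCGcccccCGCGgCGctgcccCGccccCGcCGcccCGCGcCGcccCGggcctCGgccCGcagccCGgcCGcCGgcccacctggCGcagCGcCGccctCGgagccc
The window of VPS9D1 holds 35 CG, that of WNT3A 38, that of GSTP1 28, that of SARM1 23 and that of MANEAL 6. Of 35116 RefSeq windows of the same length, 5.80% hold at least as many as VPS9D1, 3.28% as WNT3A, 15.9% as GSTP1, 25.8% as SARM1 and 61.9% as MANEAL. CG reads the same on both strands, and the median window holds 11. The falls thus include a dense and a sparse window, and methylation of these bases was not analysed here. A comparison over all called genes is void, because 147 of the 199, or 73.9%, matched a window, under the 80% set as minimum.

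Among genes that set, remove or read methylation, DNMT3B was the only call besides TET1. Of 13 members tested in the list of cytosine methylation and oxidation genes, 2 were called higher, TET1 and DNMT3B, and 0 lower. Of all genes tested, 1.03% were called higher and 0.26% lower, and TET1 is the gene of the construct itself. DNMT3B, a de novo methyltransferase, rose by 0.15 ± 0.04 with an adjusted p of 0.00685 in the authors' deposited table. The maintenance enzyme DNMT1 stood at 0.02 ± 0.05, TET2 at 0.07 ± 0.08, TET3 at 0.00 ± 0.08 and TDG, which excises oxidised cytosines, at -0.05 ± 0.04 with the shrinkage undone. Of 11 methyl-binding proteins, 0 were called at the deposited adjusted p, beside 1.3% of all genes tested, and 1, ZBTB38, had an unadjusted p below 0.05. MBD2 stood at -0.04 ± 0.06 and MBD3 at -0.08 ± 0.05, also with the shrinkage undone. A change of these readers was thus not detectable with 3 libraries a group at the deposited precision.

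Epithelial genes gave the largest share of calls among lists with more than 15 members tested. Of 20 tested, 4 were called higher and 0 lower, or 20%, beside 1.03% higher and 0.26% lower of all genes tested. They were KRT19, a keratin of simple epithelium, CDH3, P-cadherin, SFN, 14-3-3 sigma, and RAB25, a small GTPase of epithelial transport. KRT19 rose by 0.21 ± 0.08, CDH3 by 0.50 ± 0.21 and SFN by 0.88 ± 0.29 in the authors' deposited table. With the shrinkage undone the median over the 20 was 0.27, beside -0.01 over all genes tested, and 18 of the 20 lay above 0. CDH1, E-cadherin, stood at 0.57 ± 0.17 with an adjusted p of 0.0571, and KRT8 at 0.14 ± 0.08, on the same scale. Most keratinocyte markers were near the floor: of 5 in the table, KRT5 and KRT14 had mean levels of 0.46 and 0.263 normalized counts. The 1 tested, at a mean level of 529, was not called, nor at an unadjusted p below 0.05. In bulk RNA, a change in the number of cells of a type and a change in RNA per cell cannot be told apart.

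Histone genes gave 3 calls, all higher, of 44 replication-dependent members tested, or 6.82%, beside 1.03% of all genes tested. HIST1H2BG rose by 0.81 ± 0.09, HIST1H2AE by 0.41 ± 0.09 and HIST1H1D, a linker histone, by 0.23 ± 0.05 in the authors' deposited table. The median of the list with the shrinkage undone was 0.04, with 24 members above 0 and 20 below. These genes, whose transcripts lack poly(A) tails, are near-identical in sequence, so reads can be split between copies, and the values are uncertain. HIST1H2BG and HIST1H1D stand next to each other in the table's order, as do 5 other pairs of called genes. The members of all 6 pairs were called higher, as were 79.9% of all calls, among them TTI1 with TGM2, a transglutaminase, and GPR146 with GPER1, an estrogen receptor. LRRC24 with C8orf82 and ITPRIPL2 with CTD-2349B8.1 had nearly the same fold changes, and overlapping genes can share reads.

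Defence and stress lists had 1 or 2 calls each, which can be read beside the 1.3% of all genes tested that were called. Of 25 interferon response genes tested, IRF7 and IFITM2, an antiviral membrane protein, were called higher and 0 lower. IFITM2 rose by 0.29 ± 0.10 in the authors' deposited table, and its near-identical relatives make the value uncertain. Of 13 glutathione S-transferases, GSTP1 was called, with 0.31 ± 0.06 in the authors' deposited table, and of 17 NRF2 targets, FTL. Of 30 genes of the integrated stress response, ALDH1L2, a mitochondrial folate enzyme, was called higher, at 0.50 ± 0.12 in the authors' deposited table. With the shrinkage undone, 27 of the 30 lay above 0, with a median of 0.08, beside 6961 of all 15364 genes tested. Of 20 genes of the unfolded protein and heat shock list, HSPA2 was called, and 12 of the 20 lay below 0.

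Growth and metabolism lists held few calls, as did all genes tested, of which 1.3% were called. Of 24 cholesterol synthesis genes, 20 lay below 0 with the shrinkage undone, with a median of -0.05. Of 38 nuclear oxidative phosphorylation genes, UQCRFS1 was called lower, and 26 lay below 0. Of 35 S phase genes 0 were called, with 2 at an unadjusted p below 0.05, and 27 lay below 0 with a median of -0.02. Of 31 p53 targets 0 were called, with 3 at an unadjusted p below 0.05, 24 above 0 and a median of 0.04. Of 30 G2 and M phase genes 0 were called and 1 had an unadjusted p below 0.05, as did 1615 of all genes tested. POLE2 and MCM6, parts of the replication machinery, stood at -0.17 ± 0.05 and -0.12 ± 0.04, and SPATA18 and CDKN1A, p53 targets, at 0.24 ± 0.08 and 0.16 ± 0.07, with the shrinkage undone and none of them called.

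The lists below can be read beside the 1.3% of all genes tested that were called, a share at which short lists often hold 0 calls. Germline genes, often cited as silenced by methylation, gave 0 calls of 18 tested and 2 at an unadjusted p below 0.05. DMC1 and the testis-enriched HSPA2, called higher as given above, are not members of that list. Cancer-testis genes gave 0 of 3, with 2 at that unadjusted level. Of 46 clustered protocadherins tested 0 were called and 4 had an unadjusted p below 0.05, although 41 lay above 0, with a median of 0.08. The protocadherin gamma genes share their last exons, so their values are not separate measurements. Imprinted genes (12 tested), HOX genes (38), immediate early genes (29) and mitochondrial ribosome genes (34) had 0 calls each, and in that order 3, 5, 1 and 4 of them had an unadjusted p below 0.05. Among 26 mesenchymal genes, COL5A1, a fibrillar collagen, was called higher at 0.21 ± 0.05 in the authors' deposited table. The median of that list with the shrinkage undone was 0.18, with 14 members above 0 and 12 below, and 6 had an unadjusted p below 0.05. Of 17 housekeeping genes, HPRT1 was called lower. Of 12 HEK293 background markers 0 were called and 1 had an unadjusted p below 0.05, while 7 blood cell markers and 1 hepatocyte marker gave 0 at either threshold.

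**Figure D2:**
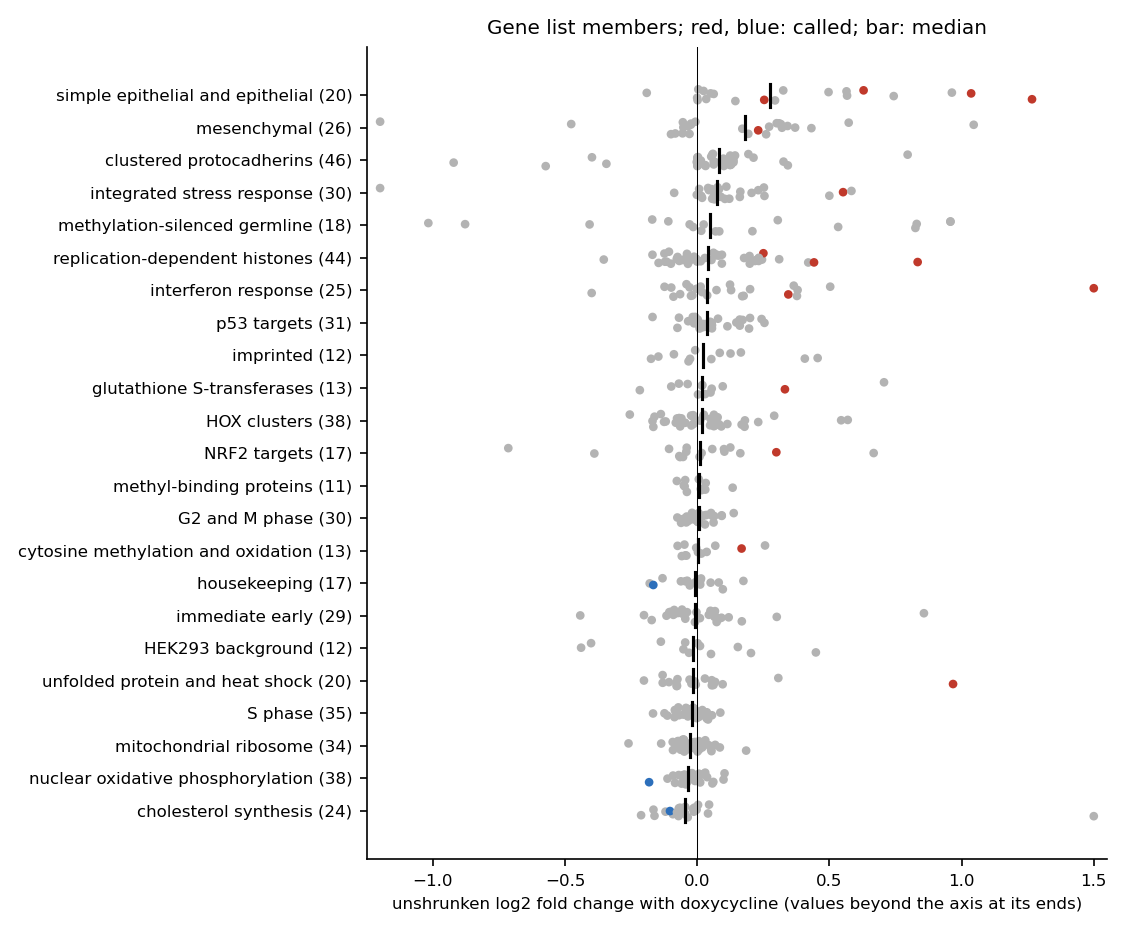
Members of the gene lists with at least 10 genes tested, 1 grey, red or blue point per gene, TET1 left out, with the number tested in brackets. The horizontal axis is the log2 fold change with the shrinkage undone, with values beyond its ends drawn there, and the black bar is the list's median over genes tested. The epithelial list has the highest median, 0.27, and cholesterol synthesis the lowest, -0.05.

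The same treatment of other lines used separate untreated libraries, so their values can be set beside these. In the HEK293 TET-CD line, 57 of the 158 genes called higher here other than TET1 were also called higher, where 0.653% of all genes tested were. That is 36.1% of the genes called here and 58.8% of the 97 called there other than TET1. The fold change was above 0 there for 153 of the 158, beside 49.5% of all genes. Of the 40 genes called lower, 29 were below 0 and 5 were called lower there, where 0.227% were: MANEAL, FBXL14, VPS9D1, SARM1 and UQCRFS1. The test of the difference found 0 genes of 15810 that differed from the TET-CD line at an adjusted p below 0.05, with 465 at an unadjusted p below 0.05. This does not show that the lines act alike. In simulated data with these standard errors the test called 48% of differences of 0.25, 86% of 0.5 and 94% of 1 on log2. The simulated differences were all in genes at a mean level of 100 or more, so the shares do not hold for weaker genes. All 200 were present at once, which eases the adjusted threshold, so the shares are too high where few genes differ. ERC1, with a difference of 0.29 ± 0.07 and an unadjusted p of 1.42e-05 by the z test, had an adjusted p of 0.225.

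The TETmut-CD line gave a different picture, although the genotype field of the libraries here carries that name. Of the same 158 genes, 89 were above 0 there, beside 48.7% of all genes, and 1, ERC1, was called higher, where 0.0165% were. Of the 40 lower genes, 26 were below 0 there, beside 51.3% of all genes. Of the 40, 1, UQCRFS1, was called lower, where 0.011% were. The difference between the lines passed for 21 genes of 15809, or 0.133%, and all 21 were among the 175 genes called here that could be compared. The calls were made on a value that enters the difference, so this overlap follows in part from that choice. The fold change here was higher for 20 of them and lower for 1, VPS9D1. Some standard errors of the TETmut-CD line were taken from the TET-CD line. With errors recovered in each line only, 16 genes differed.

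Genes that differed included several with the smallest adjusted p-values in this line. With the shrinkage undone, ERC1 stood at 0.68 ± 0.06 here and 0.16 ± 0.03 in the TETmut-CD line, a difference of 0.51 ± 0.07 with an adjusted p of 2.41e-10. HIST1H2BG stood at 0.83 ± 0.09 here and -0.11 ± 0.09 there, and VPS9D1 at -0.75 ± 0.08 here and 0.04 ± 0.07 there, each with an adjusted p of the difference of 1.41e-09. MXRA8 stood at 1.68 ± 0.26 and -0.01 ± 0.09, with an adjusted p of 1.66e-06. IL17RB, HIST1H1D, NSMF, FTL, HIST1H2AE, LAMC3, HSPA2 and GSTP1 also differed, each higher here. GSTP1 stood at 0.33 ± 0.06 here and 0.02 ± 0.03 there. The 2 lines came from separate experiments, so line, experiment and construct cannot be told apart.

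UQCRFS1 was the only fall also called lower in the TETmut-CD line. It stood at -0.18 ± 0.04 here and -0.19 ± 0.03 in the TETmut-CD line with the shrinkage undone, and the TET-CD line had -0.11 ± 0.03. In U2OS it stood at -0.27 ± 0.04. Its fold change was thus below 0 with either form of the construct and in both kinds of cell.

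**Figure D3:**
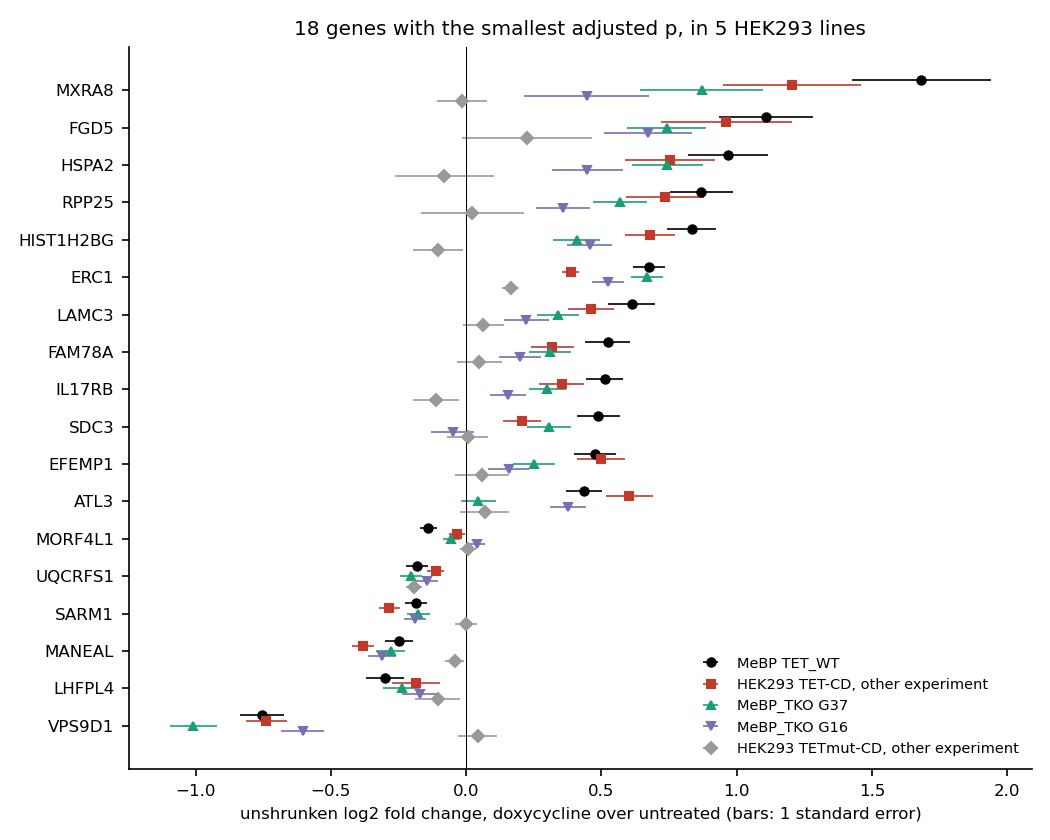
Log2 fold change with doxycycline, shrinkage undone, of the 12 rises (mean level 100 or more, TET1 left out) and 6 falls with the smallest adjusted p in the MeBP TET_WT line. Symbols are 5 HEK293 lines and bars are 1 SE. The grey TETmut-CD values lie near 0 for most of the genes, while the red TET-CD values lie on the same side as the black ones.

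The 2 lines titled MeBP_TKO were measured in the same experiment as this line. In G37, 156 of the 158 higher genes were above 0 and 31 were called higher, where 0.227% of genes were, and all 40 lower genes were below 0 with 4 called lower, where 0.035% were. The difference from G37 passed for 0 of 18593 genes, with 223 at an unadjusted p below 0.05. The standard errors of that table could be recovered for 72 genes only, so those of the other lines stood in. In G16, 125 of the 158 were above 0. Of the 97 that were tested there, 6 were called higher, where 0.163% were, and 1, GRINA, was called lower. Of the genes called lower here, 11 of the 40 were below 0 in G16 with 3 called lower, where 0.199% were. The difference from G16 passed for 81 of 18595 genes, or 0.436%, with 39 higher here and 42 lower, and 24 of them were among the 199 called here. The 199 were chosen on a value that enters this difference, so that overlap follows in part from the choice. With the deposited shrunken values the order turned, with 30 genes differing from G37 and 13 from G16, so these counts do not rank the lines.

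GRINA, a membrane protein linked to NMDA receptors, gave the smallest adjusted p of the difference from G16. It stood at 0.39 ± 0.08 here and -0.31 ± 0.08 in G16 with the shrinkage undone, an adjusted p of 4.78e-06. FTL stood at 0.30 ± 0.05 here and -0.11 ± 0.05 in G16, and SDC3, a heparan sulfate proteoglycan, at 0.49 ± 0.08 and -0.05 ± 0.08. TET1 itself rose by 0.54 ± 0.10 less in G16. The part of that smaller induction in the other differences was not tested.

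Few genes were called in the same direction in all 3 other HEK293 tables with TET-CD. They were ERC1 and HIST1H2BG among the rises and VPS9D1, MANEAL and SARM1 among the falls. A further 19 rises and 1 fall, UQCRFS1, were called in 2 of the 3 others, and 87 rises and 35 falls in 0. With TET-CD, in G37 and in G16, 0.653%, 0.227% and 0.163% of genes tested were called higher and 0.227%, 0.035% and 0.199% lower. In that order 153, 156 and 125 of the 158 rises lay above 0, and 29, 40 and 11 of the 40 falls below 0. In G16, 97 of the 158 were tested. A missing call elsewhere thus does not make a change particular to this line. VPS9D1 with the shrinkage undone stood at -0.75 ± 0.08 here, -0.74 ± 0.08 with TET-CD, -1.01 ± 0.09 in G37 and -0.60 ± 0.08 in G16. ERC1 stood at 0.68 ± 0.06, 0.39 ± 0.03, 0.67 ± 0.06 and 0.52 ± 0.06 in the same order, and HIST1H2BG at 0.83 ± 0.09, 0.68 ± 0.09, 0.41 ± 0.09 and 0.46 ± 0.08. MANEAL stood at -0.25 ± 0.05, -0.38 ± 0.04, -0.28 ± 0.05 and -0.31 ± 0.05 in that order, and SARM1 at -0.18 ± 0.04, -0.28 ± 0.04, -0.18 ± 0.04 and -0.19 ± 0.04.

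**Figure D4:**
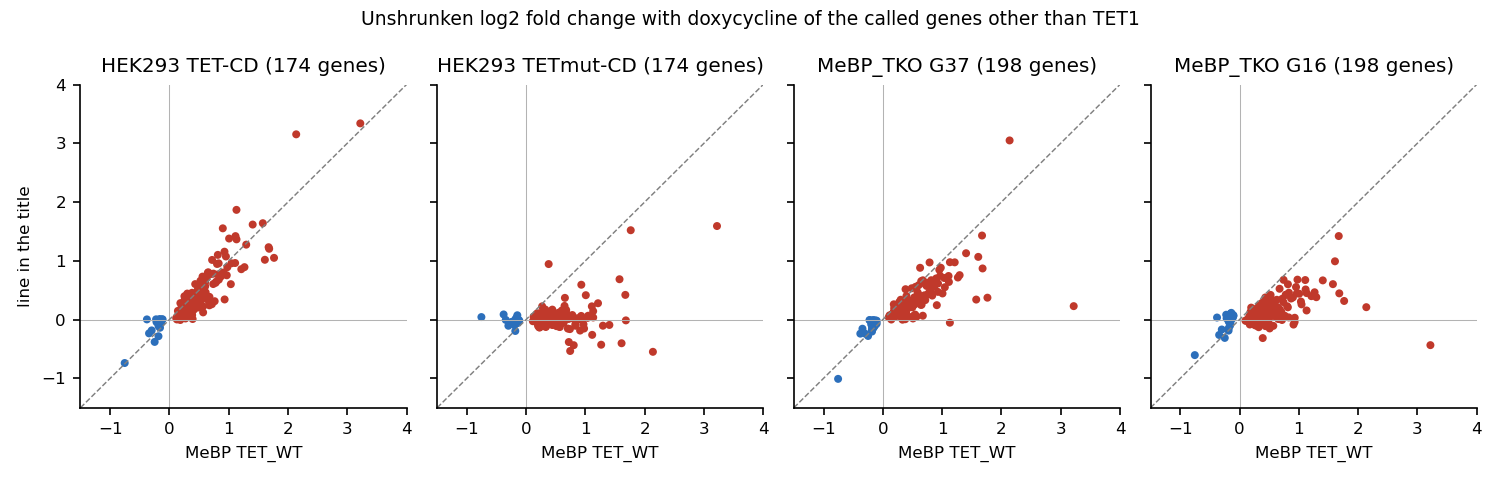
Log2 fold change with the shrinkage undone in 4 other HEK293 lines (vertical axes) against the MeBP TET_WT line (horizontal axis), 1 point per gene called here other than TET1, red higher and blue lower. The dashed line marks equal values. Genes were chosen on the horizontal axis, so values nearer 0 on the vertical axis follow in part from that choice.

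In U2OS, 20 of the 158 were called higher, where 5.79% of all genes were, and 10 were called lower, where 6.41% were. The sign matched for 77 of the 158, close to the 48.1% of all genes above 0. Of the 40 genes called lower here, 13 lay below 0 in U2OS, beside 51.9% of all genes, with 1 called lower and 3 called higher. HIST1H2BG stood at 0.73 ± 0.10, ALPPL2 at 2.33 ± 0.19 and KRT19 at 1.00 ± 0.30 there with the shrinkage undone. ERC1 stood at -0.17 ± 0.04 and VPS9D1 at -0.07 ± 0.07, so ERC1 went the other way there and VPS9D1 stood within 1 SE of 0.

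Aza, which traps DNA methyltransferases, was given to the same line and was compared with the same untreated libraries. The values are therefore set side by side only. ERC1 stood at 0.68 ± 0.06 with doxycycline and -0.08 ± 0.06 with Aza, VPS9D1 at -0.75 ± 0.08 and -0.08 ± 0.08, and LAMC3 at 0.61 ± 0.09 and 0.00 ± 0.09, with the shrinkage undone. ALPPL2 stood at 1.76 ± 0.43 and 3.44 ± 0.40, KRT19 at 0.25 ± 0.07 and 0.91 ± 0.07, and GSTP1 at 0.33 ± 0.06 and 0.57 ± 0.06. HIST1H2BG stood at 0.83 ± 0.09 and 0.61 ± 0.09, and MXRA8 at 1.68 ± 0.26 and 1.53 ± 0.26.

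Nascent RNA had been measured in the HEK293 TET-CD line, with separate libraries. PRO-seq maps engaged polymerase in gene bodies, and PRO-cap maps the capped ends of new transcripts at start sites. Of the 158 genes called higher here, 47 were in the PRO-seq table, and 24 of them were called higher, beside 3.46% of all genes in that table and 3.32% of its rows. The fold change was above 0 for 42 of the 47, with a median of 0.41, beside 52.8% of all genes and a median of 0.01. PPAPDC3, a phosphatidic acid phosphatase-like protein, stood at 1.00 ± 0.13, WNT3A, a secreted growth factor, at 0.84 ± 0.11 and QDPR, which regenerates tetrahydrobiopterin, at 0.68 ± 0.08 in the authors' deposited table. LAMC3 stood at 0.63 ± 0.08 and MXRA8 at 1.16 ± 0.29 there in the authors' deposited table. ARRDC3, an arrestin-domain protein, went the other way, with -0.30 ± 0.09 in PRO-seq and 0.17 ± 0.06 in total RNA in the authors' deposited tables.

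In PRO-cap, 48 of the 158 were in the table and 36 lay above 0, beside 48.6% of all genes. Of the 48, 7 were called higher, beside 2.47% of all genes and 1.95% of rows: WNT3A, PPAPDC3, FGFR3, CTSH, PSTPIP1, TGM2 and CPT1A. WNT3A stood at 0.66 ± 0.14 and CTSH, the protease cathepsin H, at 0.57 ± 0.15 in the authors' deposited table of initiation. UAP1L1 was called lower, where 1.92% of rows were, at -0.52 ± 0.16, while its total RNA stood at 0.21 ± 0.07 in the authors' deposited tables. Of the 40 genes called lower here, 6 were in each nascent table, and LHFPL4 was the 1 called lower, at -0.34 ± 0.08 in PRO-seq, where 2.52% of rows were, in the authors' deposited table. ERC1, VPS9D1, MANEAL and SARM1 were in neither nascent table.

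**Figure D5:**
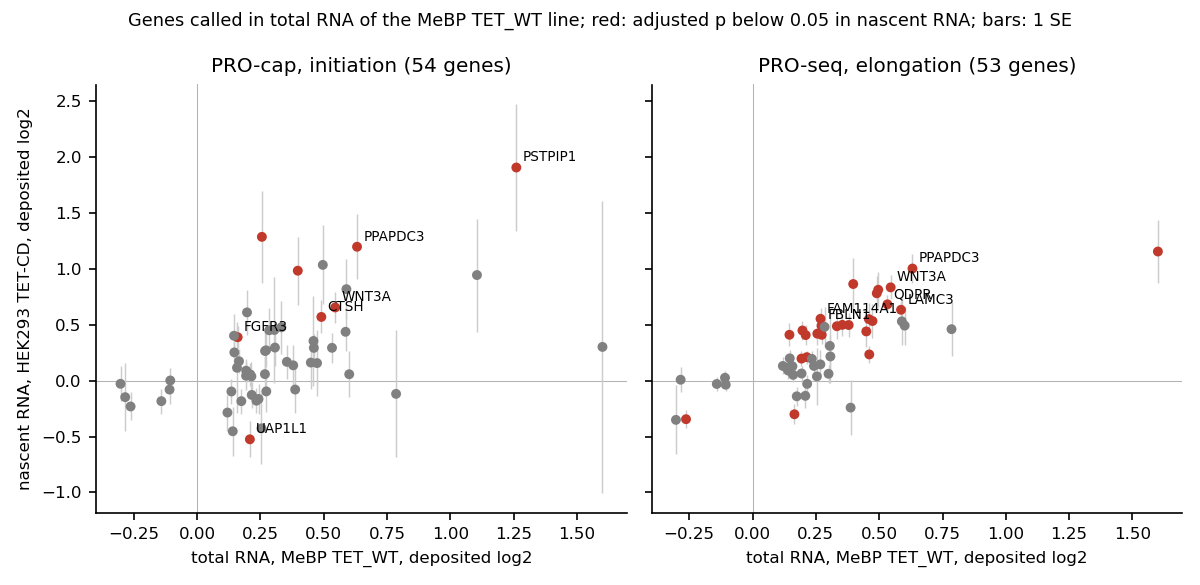
Deposited log2 fold change of nascent RNA in the HEK293 TET-CD line (vertical axes, PRO-cap left and PRO-seq right) against that of total RNA in the MeBP TET_WT line (horizontal axes), 1 point per called gene in both tables. Bars are 1 SE and red points have an adjusted p below 0.05 in nascent RNA. Most genes that rose in total RNA lie above 0 in PRO-seq, 42 of 47.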

How the data were processed

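Total RNA depleted of ribosomal RNA was sequenced with a stranded kit, per the labels' protocols. STAR 2.4.2, deepTools 3.0.2, R 3.5.1 and DESeq2 1.22.1 on hg19 are named in the submitters' processing notes, with no stated role, and Trim Galore 0.4.3 and bedtools 2.20.1 also for nascent RNA. Of 37 tables, 11 were used. Mean level is a signal column the authors deposited, each gene's normalized count averaged over an experiment. Fold changes, treated against untreated, and their standard errors are on the log2 scale in what the authors deposited. Each p-value was deposited raw and adjusted, and blank adjusted values mark genes filtered for low levels. A score was also deposited for nascent RNA, equal to the log2 value divided by its error. Total RNA fold changes are shrunken toward 0, as their p-values show.

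Genes were called at a deposited adjusted p below 0.05. No table used holds values per sample, so the count test, replicate block and leaving out of replicates that were planned were not run, and depth per sample is unknown. Shrinkage was undone by assuming a Cauchy prior, with its scale chosen so that p-values of genes above a mean level of 200 were recovered, and an error was kept if it matched within a tolerance of 0.05. The difference between lines was tested by z with Benjamini-Hochberg adjustment over all genes, and values beyond 20 on log2 were left out. Where a standard error could not be recovered, that of the other lines of the experiment was used, and this applies to most genes of G37. It also applies to part of the genes in the HEK293 TET-CD and TETmut-CD lines, where 69.3% and 81.5% of errors were recovered. FTL, NSMF and HIST1H1D are among the genes with 1 shared error for those 2 lines. The test was checked on simulated data with 13064 genes, of which 200 differed between this line and the HEK293 TET-CD line. The 200 were drawn from genes at a mean level of 100 or more, and differences in weaker genes were not simulated. They were all present at once, so the shares called do not hold where fewer genes differ. Of differences of 0.25, 0.5, 1 and 2, 48%, 86%, 94% and 100% were called, and 6.82% of calls were false. Python 3.11.15, numpy 2.4.6, pandas 2.3.3 and scipy 1.17.1 were used.

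Called genes at a mean level of 100 or more were named where they were among the 15 largest changes or the 10 smallest p-values of a direction, with up to 4 members per list and the 6 smallest p-values of each difference. Genes of lower level, the 6 with heavily shrunken values, the pairs in adjacent rows and the nascent examples were named after their values were seen. The comparison, its members and the 27 gene lists were chosen with earlier results of these data known. Results for some items are not reported here.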

Additional observations from a re-analysis of the deposited data

Results flagged for a closer look

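The response to doxycycline differed between this line and another line by the z test of the unshrunken log2 fold changes for the genes listed here, each at an adjusted p below 0.05, so each was marked for a second look. Against the HEK293 TETmut-CD line the response here was higher for IL17RB by 0.62 ± 0.11, HIST1H2BG by 0.94 ± 0.13, HIST1H1D by 0.33 ± 0.06 and NSMF by 0.35 ± 0.07. It was also higher for TET1 by 0.54 ± 0.07 and ERC1 by 0.51 ± 0.07. It was lower for VPS9D1, with a difference of -0.80 ± 0.11. The adjusted p-values ran from 2.41e-10 for ERC1 to 0.000578 for NSMF. For TET1 in this line the deposited value was used, here and against G16, because its p-value was too small to undo the shrinkage.

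Against G16 the response here was higher for GRINA by 0.71 ± 0.11, MRPS2 by 0.43 ± 0.09, TET1 by 0.54 ± 0.10 and RPS15 by 0.53 ± 0.11. It was also higher for FTL by 0.41 ± 0.07 and CDK16 by 0.30 ± 0.06. It was lower, with the difference in brackets, for CD46 (-0.21 ± 0.05), ORC2 (-0.18 ± 0.04), C11orf58 (-0.19 ± 0.04). The same held for STRAP (-0.19 ± 0.04), TBC1D15 (-0.25 ± 0.05) and PHF6 (-0.19 ± 0.04). The adjusted p-values ran from 4.78e-06 for GRINA to 0.0134 for CD46. In G16 the 6 genes that were lower here stood above 0, and in this line they stood below 0.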

How the results depend on the processing

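With an adjusted p below 0.01 the calls were 83 higher and 9 lower, and below 0.1 they were 247 and 74. Centring fold changes on their median gave 216 higher and 24 lower. Adjusting over every gene with a p gave 149 and 34, over genes at a mean level of 100 or more it gave 133 and 41, and 1 copy of each symbol gave 159 and 40. Of the 199 calls, 183 were still called without the filter and 183 after centring. Among named genes SAP30 (0.0597) and C17orf59 (0.0501) lost the call without the filter, and the 4 genes given above lost it after centring. The differences from the TETmut-CD line, from G16 and from G37 numbered 52, 13 and 30 with the deposited shrunken values, against 21, 81 and 0 with the shrinkage undone; the deposited values are shrunken to unequal degrees in each table, by construction. With centring they numbered 25, 82 and 0, and at a mean level of at least 100 they numbered 23, 109 and 0. Restricting to standard errors recovered in each table, chosen after seeing the data, gave 16, 79 and 0. The difference from the TET-CD line was 0 under each of these. No paired analysis was possible because the tables hold no values per sample, and for the same reason no replicate could be left out. Low levels limit the rest: 3245 genes with a p had no adjusted p.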
